A study of Mus musculus with 18 samples.

Results

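The strain ratio, the level of a transcript in DBA/2J divided by its level in C57BL/6J, was compared between whole brain and liver of the mouse. The comparison took the arrays titled brain replicate 1 to 6 and liver replicate 1 to 6, which are 12 of the 18 arrays of the series, and the other 6 are kidney arrays. Each array is a 2-colour glass array on which RNA of both inbred strains was hybridised together. DBA/2J carried Alexa Fluor 647 and C57BL/6J carried Alexa Fluor 555 on each of the 12 arrays, and no dyes were swapped. Each strain's RNA came from a pool of 10 mice for brain and of 9 mice for liver, and those pools served all 6 arrays of the tissue. The p-values below therefore measure the spread between hybridisations and not between mice. The sources used here give neither age nor sex of the mice, and no allele or treatment other than the strain is named. A positive log2 ratio is read as higher in DBA/2J. That direction is likely and not stated: the labels name DBA/2J as the Alexa Fluor 647 channel, and a 2-colour ratio is usually the red channel over the green. A dye effect that is constant for a spot cancels when the liver ratio is subtracted from the brain ratio, but stays in the ratio of either tissue alone. Probe sequences were not at hand, so probes could not be checked against sequence variants between the strains. The part of such variants in the ratios, or in their difference between tissues, was not tested.

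DBA/2J and C57BL/6J are inbred, so each mouse of a strain carries the same alleles in every tissue. A regulatory difference between the strains can show wherever a gene is transcribed, or only where the factors, hormones or conditions it depends on are present. Hepatocytes make most plasma proteins and hold the enzymes of sterol, fatty acid and drug metabolism, whereas brain holds neurons and glia with their peptides, receptors and myelin, so many genes are abundant in either tissue and near background in the other.

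The ratios of 21765 spots were averaged over spots of the same gene symbol to 20218 features, of which 15095 had a gene name. Spot intensity was rebuilt from the deposited ratios, and is given below as a percentile among all features of that tissue, from 0 for the dimmest to 100 for the brightest. Whether a spot stood above its local background is not given in the sources used here. A ratio near 0 on a dim spot can therefore not be told from background. By percentile, 17 of 17 hepatocyte markers were brighter in liver, and 13 of 13 neuron, 8 of 9 astrocyte and 8 of 9 oligodendrocyte markers were brighter in brain. Across features, the ratios of a brain array correlated with those of the other brain arrays at a mean r of 0.384, and those of liver arrays at 0.477. Brain array 1 (0.247) and liver array 2 (0.353) were lowest in their tissue. For 902 genes with 2 spots, the brain minus liver difference of the spots correlated at only r = 0.0775 across genes, and their brain minus liver intensity at r = 0.281. For the 123 of these genes whose spots were alike in brain minus liver intensity, the differences correlated at r = 0.0562. Both spots passed the threshold described below for 10 genes, and for 6 of them with the same sign. A gene name below is therefore that of the printed spot, and 1 spot cannot stand for all transcripts of the gene. Whether each spot is annotated to the right gene was not tested.

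The strain ratio differed between brain and liver for 1511 of the 20218 features (7.47%) by limma with Benjamini-Hochberg adjustment over all features at 0.05. The brain ratio was above the liver ratio for 862 features (4.26%) and below it for 649 (3.21%). The difference reached 1.5-fold for 515 of them (2.55%) and 2-fold for 83, of which 60 had a gene name. The median difference over all features was 0.02 log2 units, its 5th to 95th percentile ran from -0.33 to 0.38, and its median standard error was 0.117. At an unadjusted p under 0.05 the count was 4220. All 6 brain arrays lay above all 6 liver arrays for 424 features (2.10%), and all 6 lay below for 339 (1.68%), together 763 (3.77%). Without the loess step, which removes the drift of the ratio with intensity, 830 features passed, and 681 of the 1511 were among them.

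Of the 1511 features, 812 had a ratio different from 0 in liver but not in brain by the same fit, 471 in brain but not in liver, 69 in both with the same sign, 113 in both with opposite signs, and 46 in neither. Passing in a tissue and not in the other is no test by itself, but here the difference had also passed. Among differences of at least 1.5-fold, 279 features were past the threshold in liver alone, and 207 of these (74.2%) were brighter in liver by percentile. Of the 131 past the threshold in brain alone, 85 (64.9%) were brighter in brain. Over all features the spots brighter in liver and in brain were about equal in number. Across features, the brain and liver mean ratios correlated at r = 0.445, a value that includes any dye effect shared by both tissues.

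**Figure D1:**
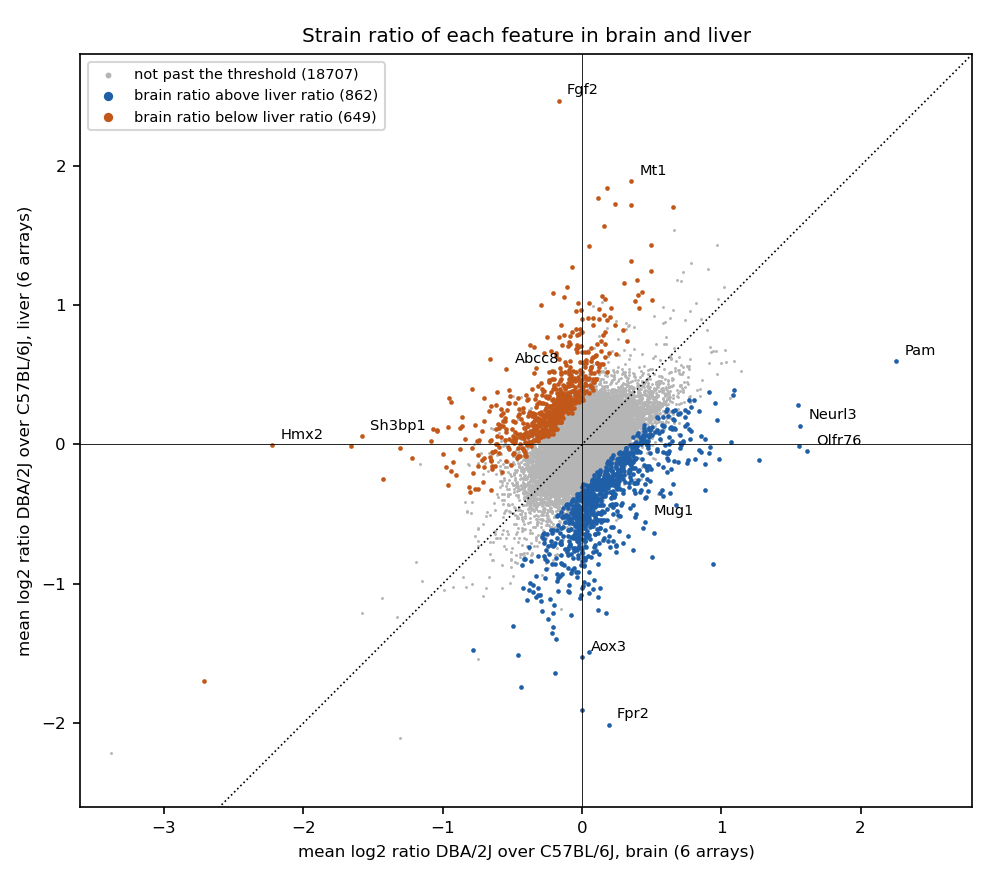
Each point is 1 of 20218 features, with its mean log2 ratio of DBA/2J over C57BL/6J over 6 brain arrays on the x axis and over 6 liver arrays on the y axis, both axes in log2 units. Blue points (862) passed the threshold with the brain ratio above the liver ratio, orange points (649) with the brain ratio below it, and grey points did not pass. The dotted line marks equal ratios. Most coloured points far from the dotted line lie along the vertical or horizontal axis, where the ratio is near 0 in brain or in liver, as for Fgf2 (-0.17 in brain, 2.47 in liver) and Hmx2 (-2.23 in brain, -0.01 in liver).

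A gene name, a 1.5-fold difference past the threshold and no overlap between the arrays of the tissues were met by 234 genes, 145 with brain above liver and 89 below. In 119 of them the ratio was past the threshold in liver alone, 84 being lower and 35 higher in DBA/2J liver. In 58 it was past the threshold in brain alone, 28 being higher and 30 lower in DBA/2J brain. Among the 12 highest and 12 lowest differences of the 234, which are described next, 11 were past the threshold in liver alone, 8 in brain alone, 2 in both with the same sign and 3 in both with opposite signs. The rule for choosing these genes required that their arrays not overlap, so a lack of overlap in them is no separate result.

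Fgf2, a fibroblast growth factor, had the lowest difference of any feature. Its log2 ratio in liver ran from 0.59 to 3.44 with a median of 2.70, and in brain from -0.32 to 0.05 with a median of -0.20. Every liver array was above every brain array, and the liver arrays spread over a wide range with array 2 lowest. The brain minus liver difference was -2.64 ± 0.30 (SE of the limma fit over all 18 arrays, as below; limma adjusted p = 3.12e-06), a 6.22-fold difference between the strain ratios. The kidney mean was -0.20, near that of brain.

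Fpr2, a receptor of formyl peptides on phagocytes, had the highest difference. In brain its ratio ran from -0.07 to 0.60 (median 0.06), and in liver from -2.95 to -0.86 (median -2.21). The liver arrays fell into 3 between -2.95 and -2.86 and 3 between -1.55 and -0.86, all below the brain arrays. The difference was 2.20 ± 0.30 (SE; limma adjusted p = 3.17e-05), and the kidney mean of -1.47 was nearer that of liver.

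Hmx2, a homeobox transcription factor, and Sh3bp1 had a lower ratio in brain and one near 0 in liver. For Hmx2 the brain arrays ran from -3.05 to -1.22 (median -2.24) and the liver arrays from -0.17 to 0.15. The brain spot was at percentile 33.0 and the liver spot at 24.8. The difference was -2.22 ± 0.21 (SE; limma adjusted p = 2.64e-07), with no overlap. For Sh3bp1 the brain arrays ran from -1.86 to -1.27 (median -1.62) and the liver arrays from -0.15 to 0.20 (median 0.08), a difference of -1.64 ± 0.13 (SE; limma adjusted p = 1.91e-08). Its spot was at percentile 87.3 in brain and 27.4 in liver.

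Pam encodes the enzyme that amidates the C-terminus of many neuropeptides. Its ratio was above 0 on every array of both tissues, from 1.49 to 3.10 (median 2.21) in brain and from 0.20 to 0.94 (median 0.62) in liver. The tissues thus differed in size and not in sign, with a difference of 1.66 ± 0.19 (SE; limma adjusted p = 3.25e-06) and a kidney mean of 1.44. The spot was at percentile 52.7 in brain and 3.47 in liver, so the liver value is from a dim spot.

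Thbs2, Neurl3, Olfr76 and E130101E03Rik had a higher ratio in DBA/2J brain and a ratio near 0 in liver. Thbs2, a matrix thrombospondin, ran from 1.03 to 2.21 (median 1.52) in brain and from -0.27 to 0.38 in liver, a difference of 1.57 ± 0.17 (SE; limma adjusted p = 1.29e-06). Neurl3, a ubiquitin ligase, ran from 1.31 to 1.91 (median 1.51) in brain and from -0.10 to 0.32 in liver, a difference of 1.43 ± 0.13 (SE; limma adjusted p = 1.09e-07). Both were free of overlap by wide margins. Olfr76, named for an olfactory receptor, had a difference of 1.67 ± 0.14 (SE; limma adjusted p = 6.14e-08) between a brain mean of 1.62 and a liver mean of -0.05, from a spot that was dim in both tissues (percentiles 6.71 and 4.17). E130101E03Rik, an unnamed transcript, differed by 1.38 ± 0.16 (SE) between brain arrays from 0.42 to 1.86 and liver arrays from -0.33 to 0.24.

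Apoc1, Specc1l and Mfsd10 had lower ratios in DBA/2J brain. Apoc1, a small apolipoprotein, ran from -4.17 to -0.79 (median -1.25) in brain and from -0.57 to 0.26 (median 0.04) in liver. Brain array 1 alone held the value of -4.17, and the difference moved from -1.65 to -1.15 without it, still past the threshold. Specc1l, a cytoskeletal linker, ran from -1.98 to -0.04 in brain and from 0.04 to 0.49 in liver, so its 2 ranges nearly met (difference -1.29 ± 0.23, SE). Mfsd10, a membrane transporter, was at -0.94 ± 0.15 (SD, n = 6) in brain and 0.30 ± 0.24 (SD, n = 6) in liver, opposite signs that were each past the threshold.

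Apcs, Hamp, Msmo1 and 1600010M07Rik had a higher ratio in DBA/2J liver and a brain mean near 0. Apcs, the serum amyloid P component, ran from 1.24 to 2.15 (median 1.83) in liver and from -0.42 to 0.50 (median 0.11) in brain, and the kidney mean was -0.11. Its difference was -1.66 ± 0.15 (SE; limma adjusted p = 1.08e-07). Hamp, the iron hormone hepcidin, ran from 0.13 to 1.73 (median 1.11) in liver and from -0.25 to -0.01 in brain, a difference of -1.19 ± 0.17 (SE). Msmo1, a demethylase of sterol synthesis, ran from 0.80 to 1.96 (median 1.32) in liver and from -0.20 to 0.14 in brain, a difference of -1.35 ± 0.14 (SE). The spots of these 3 genes were brighter in liver. 1600010M07Rik (-1.24 ± 0.13, SE) had the same form, with liver arrays from 0.87 to 1.72.

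Mt1 and Gadl1 were higher in DBA/2J liver while their brain ratios also left 0. Mt1, a metallothionein that binds zinc and copper, ran from 1.62 to 2.35 (median 1.82) in liver and from -0.07 to 0.71 (median 0.33) in brain, and the difference was -1.54 ± 0.14 (SE; limma adjusted p = 1.62e-07). Its spot was among the brightest in both tissues (percentiles 99.1 in brain and 98.0 in liver), and the kidney mean was -0.23. Gadl1, a decarboxylase of acidic amino acids, varied little between liver arrays, from 0.93 to 1.11, and ran from -0.82 to 0.08 in brain. The difference of Gadl1 was -1.30 ± 0.12 (SE; limma adjusted p = 1.47e-07).

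The liver ratio was lower than the brain ratio, and below 0, for Aox3, Amy2, Cyp3a13 and Bcas3os2. The spots of Aox3, Amy2 and Cyp3a13 were dimmer in brain, at percentiles 27.5, 6.72 and 6.04, against 89.7, 64.7 and 64.8 in liver. Aox3, an aldehyde oxidase of liver, ran from -1.90 to -1.08 (median -1.59) in liver and from -0.30 to 0.58 (median -0.06) in brain, with brain array 2 highest. Its difference was 1.53 ± 0.15 (SE; limma adjusted p = 5.73e-07). Cyp3a13, a cytochrome P450, ran from -1.67 to -0.74 (median -1.21) in liver and from -0.23 to 0.36 in brain, a difference of 1.30 ± 0.15 (SE). Amy2, an amylase gene, ran from -2.19 to -0.75 (median -1.67) in liver and from -0.36 to 0.00 in brain, a difference of 1.44 ± 0.16 (SE). Of 11 measured markers of pancreatic acinar cells, 2 passed with brain above liver (4.26% of all features did) and 9 did not pass. The 2 were Prss2 at 0.97 (0.05 in brain, -0.92 in liver) and Cpa1 at 0.48. Of these, 1 had a ratio past the threshold in liver alone and 1 in brain alone. The median ratio of the 11 markers ran from -0.28 to 0.10 over liver arrays and from -0.13 to 0.02 over brain arrays, and their part in the Amy2 result was not tested. Bcas3os2, an antisense transcript, was at -1.74 ± 0.83 (SD, n = 6) in liver and -0.44 ± 0.23 (SD, n = 6) in brain, below 0 on every array of both tissues.

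The remaining pair of the 24 genes depended on the processing. 1700096J18Rik had a difference of 1.54 ± 0.19 (SE), but -0.08 without loess and 0.08 with 1 loess curve per array, and its spot was at percentile 0.08 in liver. 1700024B18Rik had a difference of 1.31 ± 0.19 (SE), but 0.19 without loess and 0.17 with 1 loess curve per array, and its spot was at percentile 0.28 in liver. With loess kept but intensity left as the ratio alone gives it, the differences were 0.01 and 0.21. Neither gene was past the threshold under these 3 settings, and the cause was not tested.

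**Figure D2:**
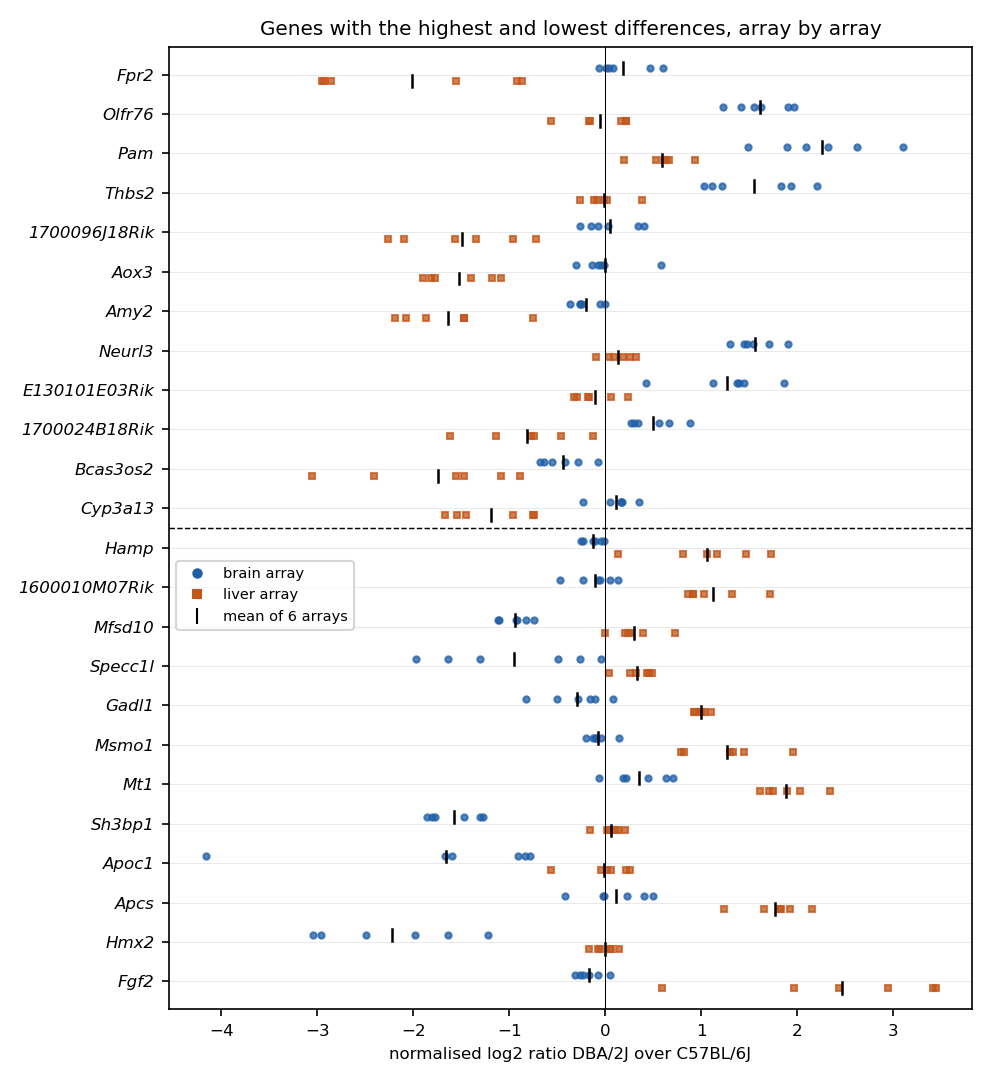
Normalised log2 ratio of DBA/2J over C57BL/6J (x axis) on each of 6 brain arrays (blue circles) and 6 liver arrays (orange squares) for the 12 genes with the highest and, below the dashed line, the 12 with the lowest brain minus liver difference, and black ticks mark the mean of 6 arrays. The arrays of the tissues do not overlap for any gene shown, which the rule for choosing them required. Fpr2, Aox3 and Amy2 sit near 0 in brain and far below 0 in liver, Fgf2, Apcs and Mt1 far above 0 in liver, and Hmx2 and Sh3bp1 far below 0 in brain.

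For 85 named genes the ratio had opposite signs in the tissues, each past the threshold, along with the difference. DBA/2J was higher in brain and lower in liver for 46 and the reverse for 39. Mug1, a protease inhibitor of plasma, ran from 0.19 to 0.86 (median 0.45) in brain and from -0.86 to -0.31 (median -0.46) in liver, a difference of 1.01 ± 0.12 (SE; limma adjusted p = 5.49e-06). H2-Q10, a secreted class I molecule made in liver, ran from 0.17 to 0.61 (median 0.50) in brain and from -0.99 to -0.44 (median -0.49) in liver, a difference of 1.04 ± 0.10 (SE; limma adjusted p = 5.73e-07). The arrays of both genes were split by 0 without exception. The Mug1 spot was at percentile 99.7 in brain and 98.41 in liver, and the H2-Q10 spot at 97.75 and 99.15. Whether these spots read only the named genes in brain was not tested. 4933427E13Rik was also higher in DBA/2J brain and lower in DBA/2J liver (0.38 in brain and -0.52 in liver). In the other direction, Abcc8, the sulfonylurea receptor, ran from -1.18 to 0.14 in brain and from 0.26 to 1.03 in liver, a difference of -1.08 ± 0.17 (SE), on a dim spot (percentiles 10.2 and 8.02). Fgf15 (-1.27 ± 0.23, SE), an intestinal hormone that acts on liver, Htr6 (-0.99 ± 0.19, SE), a serotonin receptor, and Nts (-0.91 ± 0.18, SE), the peptide neurotensin, had arrays that overlapped between tissues. Without loess the difference of Nts was -0.67 and no longer past the threshold.

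Gene lists were described by how many of their measured members passed, to be read against 4.26% of all features with brain above liver and 3.21% with brain below. No test of a list was made.

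Heat shock proteins and chaperones fold proteins in the cytosol and in the endoplasmic reticulum, and many are induced when unfolded protein builds up. Of 45 measured members, 12 passed with brain above liver, none passed with brain below, and 33 did not pass. Of the 12, 7 had a ratio past the threshold in liver alone and 2 in brain alone. In both tissues 1 passed with the same sign and 2 with opposite signs. The median difference was 0.18, against 0.02 for all features, and 36 of the 45 differences were above 0. The list's median ratio ran from -0.30 to -0.14 over the liver arrays and from 0.00 to 0.07 over the brain arrays, so the list lay lower in DBA/2J liver on each array and near 0 in brain. Against 0, 20 members were lower and 2 higher in DBA/2J liver, where 12.6% and 10.9% of all features were, and 5 were lower and 8 higher in brain, where 8.88% and 11.1% were. Without loess the count with brain above liver was 8 and the median 0.19.

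Dnajb9, a co-chaperone of the endoplasmic reticulum, was at 0.02 ± 0.15 (SD, n = 6) in brain and -0.82 ± 0.45 (SD, n = 6) in liver, and its difference was 0.84 ± 0.15 (SE; limma adjusted p = 5.49e-04), or 0.61 and not past the threshold without loess. Xbp1, a transcription factor of the unfolded protein response, ran from 0.00 to 0.45 in brain and from -0.78 to -0.26 in liver, a difference of 0.67 ± 0.12 (SE; limma adjusted p = 5.49e-04), which was 0.42 and not past the threshold without loess. Hsp90b1, a chaperone of the same compartment, ran from -0.06 to 0.26 in brain and from -0.58 to -0.26 in liver, a difference of 0.54 ± 0.09 (SE; limma adjusted p = 3.05e-04). Calr, the lectin chaperone calreticulin, ran from -0.06 to 0.23 in brain and from -0.74 to -0.37 in liver, a difference of 0.55 ± 0.10 (SE; limma adjusted p = 0.00126). Dnajc3 (0.55), Hspa13 (0.60) and Sdf2l1 (0.44) also passed. The liver arrays of Xbp1, Hsp90b1, Calr and Dnajc3 were below 0 without exception. The arrays of Dnajb9 overlapped, with brain array 6 at -0.21 and liver array 2 at -0.14. The Dnajb9 and Xbp1 spots were dim in brain, at percentiles 10.3 and 7.0, against 76.2 and 68.1 in liver.

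The small heat shock proteins Hspb1 (0.73 ± 0.15, SE), Cryab (0.62) and Hspb8 (0.48), the cytosolic co-chaperone Dnaja1 (0.63) and the constitutive cytosolic chaperone Hspa8 (0.51) completed the 12. Hspb1 ran from -0.10 to 0.54 in brain and from -0.88 to -0.08 in liver, where array 5 lay within the brain range. Hspa8 had 2 spots that disagreed, at 0.16 and 0.86, so its value is uncertain.

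A sequence known as the endoplasmic reticulum stress element is bound by factors of the unfolded protein response, and was searched for in RefSeq promoter windows (build GRCm38.p6) that reach from 250 bases before to 50 bases after each start. The motif was CCAAT, any 9 bases, then CCACG on the strand of the gene, or CGTGG, any 9 bases, then ATTGG where it lay on the opposite strand. It was in 39 of 32851 windows (0.119%), and in 37 of 27025 genes (0.137%). Of the 39 chaperone genes of the list with a window, 7 held it. The list was named for this function, so the share of 7 in 39 describes the list and not the strains. The 250 bases before the start are printed for 5 of the 7, chosen after their values were seen, because they hold the motif and include genes that passed (Hsp90b1, Calr and Dnajc3) and genes that did not (Hspa5 and Creld2). Capitals mark the fixed bases of the motif. The windows are chr10:86705445-86705694 on the minus strand for Hsp90b1, chr8:84846932-84847181 on the minus strand for Calr, chr14:118937682-118937931 on the plus strand for Dnajc3, chr2:34771840-34772089 on the plus strand for Hspa5 and chr15:88819396-88819645 on the plus strand for Creld2.
Hsp90b1: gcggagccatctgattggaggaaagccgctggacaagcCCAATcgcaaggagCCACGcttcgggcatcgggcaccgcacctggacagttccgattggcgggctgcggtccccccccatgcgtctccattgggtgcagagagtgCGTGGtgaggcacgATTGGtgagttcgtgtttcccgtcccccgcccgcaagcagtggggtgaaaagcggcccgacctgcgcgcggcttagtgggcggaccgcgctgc
Calr: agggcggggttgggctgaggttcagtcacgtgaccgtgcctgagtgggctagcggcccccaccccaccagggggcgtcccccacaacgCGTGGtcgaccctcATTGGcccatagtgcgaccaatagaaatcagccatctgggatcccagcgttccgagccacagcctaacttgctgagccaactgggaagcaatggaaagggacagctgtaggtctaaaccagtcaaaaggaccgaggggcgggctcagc
Dnajc3: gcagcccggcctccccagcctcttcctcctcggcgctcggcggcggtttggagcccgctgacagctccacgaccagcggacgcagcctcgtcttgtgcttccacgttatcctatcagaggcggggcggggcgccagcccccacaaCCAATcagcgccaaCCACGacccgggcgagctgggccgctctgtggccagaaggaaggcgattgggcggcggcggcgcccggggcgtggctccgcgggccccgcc
Hspa5: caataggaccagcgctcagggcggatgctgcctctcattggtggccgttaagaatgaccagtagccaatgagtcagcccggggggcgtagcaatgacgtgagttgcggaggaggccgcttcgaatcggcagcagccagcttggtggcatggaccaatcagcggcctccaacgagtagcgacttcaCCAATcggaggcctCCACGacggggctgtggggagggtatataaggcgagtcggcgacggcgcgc
Creld2: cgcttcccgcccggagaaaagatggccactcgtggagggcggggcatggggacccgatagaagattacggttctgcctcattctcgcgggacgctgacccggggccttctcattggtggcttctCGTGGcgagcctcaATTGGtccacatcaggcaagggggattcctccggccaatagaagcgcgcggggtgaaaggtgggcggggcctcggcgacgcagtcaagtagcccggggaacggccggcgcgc
Hsp90b1 held the motif on both strands, beginning 212 and 107 bases before the start, and had a difference of 0.54. Hspa5, the main chaperone of the endoplasmic reticulum, had a difference of 0.46 ± 0.15 (SE) that did not pass (limma adjusted p = 0.0716), with brain arrays from -0.01 to 0.96 and liver arrays from -0.36 to 0.46. Creld2 had a difference of -0.31 ± 0.12 (SE; limma adjusted p = 0.114), opposite in sign, and was lower in DBA/2J in both tissues (-0.80 in brain and -0.49 in liver). The other holders, Canx (0.27) and Pdia6 (0.23), did not pass. The motif was thus present in genes with and without a difference past the threshold.

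Cholesterol synthesis runs from acetyl-CoA through isoprenoids and squalene to sterols, under transcription factors that sense sterols, and fatty acid synthesis shares its acetyl-CoA. Of 41 measured members of the list, 10 passed with brain below liver, 3 passed with brain above and 28 did not pass. The median difference was -0.23, and 12 of the 41 differences were above 0. The list's median ratio ran from 0.01 to 0.23 over liver arrays and from -0.13 to 0.02 over brain arrays. Against 0, 15 members were higher and 6 lower in DBA/2J liver, where 10.9% and 12.6% of all features were. Of the 13 that passed, 11 had a ratio past the threshold in liver alone and 2 in brain alone. Over the alternative settings the count below ran from 7 to 12 and the median from -0.26 to -0.17.

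Along the pathway, the members below were Idi1 (-0.51) and Fdps (-0.71), which make isoprenoid precursors, Sqle (-0.58), which oxidises squalene, and Cyp51 (-0.46), Msmo1 (-1.35) and Sc5d (-1.04), which modify the sterol ring. Fdps ran from 0.57 to 1.09 (median 0.96) in liver and from -0.17 to 0.52 (median 0.24) in brain, without overlap. Sc5d rested on a wide spread in liver, from -0.49 to 1.87 with a median of -0.26, and was not past the threshold without brain array 1, brain array 5 or liver array 1. Fdft1, the squalene synthase between Fdps and Sqle, went the other way, from -0.84 to -0.17 (median -0.56) in liver and -0.30 to 0.32 in brain, a difference of 0.49 ± 0.11 (SE; limma adjusted p = 0.00672). Neighbouring steps of the pathway thus differed in direction.

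Of the regulators, Insig1, which retains the sterol sensor in the endoplasmic reticulum, ran from 0.06 to 0.61 (median 0.47) in liver and from -0.37 to -0.02 in brain, a difference of -0.63 ± 0.11 (SE; limma adjusted p = 8.02e-04). Its relative Insig2 differed in the opposite direction at 0.57 ± 0.17 (SE; limma adjusted p = 0.0464), with liver arrays from -1.06 to 0.38. Mlxipl, a glucose-responsive factor of lipid synthesis, was at 0.37, from a brain ratio of 0.44 and a liver ratio of 0.07. In fatty acid and glycerolipid synthesis, Acly (-0.46), Elovl5 (-0.77) and Gpam (-0.86 ± 0.14, SE) were below. Gpam, which starts glycerolipid synthesis, ran from 0.29 to 1.33 in liver and from -0.34 to 0.12 in brain.

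**Figure D3:**
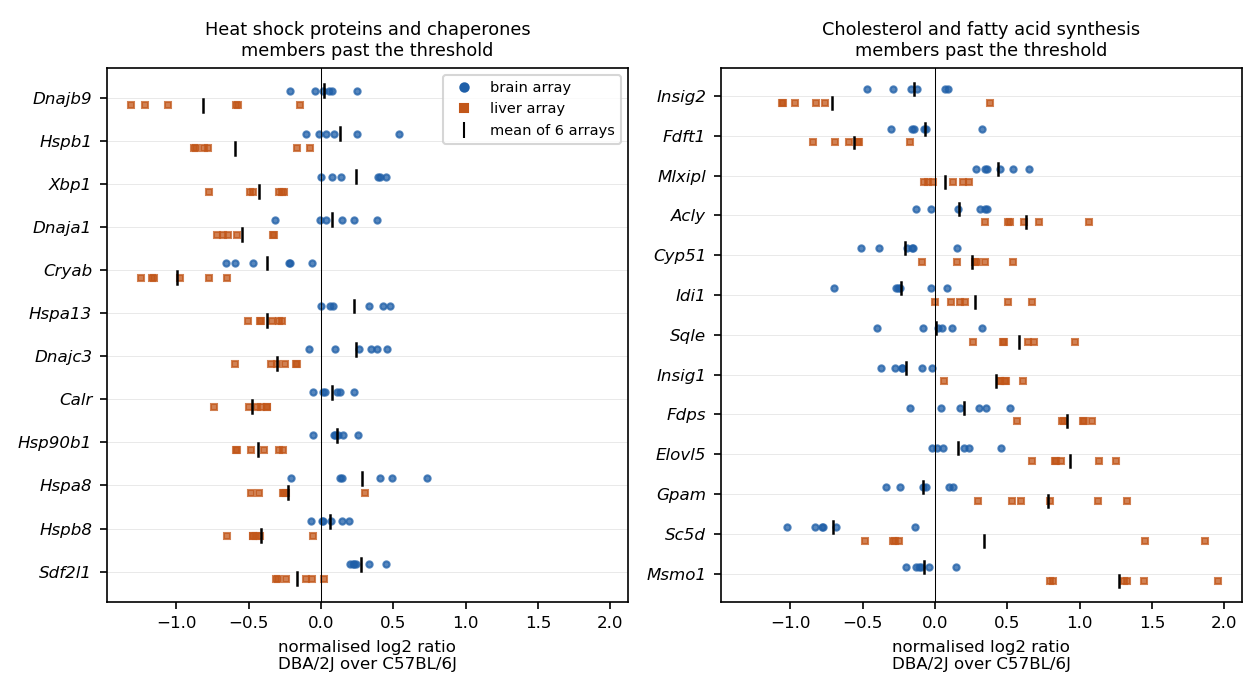
Normalised log2 ratio of DBA/2J over C57BL/6J (x axis) on each of 6 brain arrays (blue circles) and 6 liver arrays (orange squares) for the 12 chaperone genes (left) and the 13 cholesterol and fatty acid synthesis genes (right) whose brain minus liver difference passed the threshold, with black ticks at the mean of 6 arrays. On the left most liver squares lie below 0. Of the 12 genes there, 7 had a ratio past the threshold in liver alone, 2 in brain alone and the others in both. On the right the liver mean of 10 genes lies above their brain mean while Insig2, Fdft1 and Mlxipl go the other way. Single arrays overlap for several genes, as for Sc5d.

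Fatty acid oxidation is driven in liver by the receptor PPAR-alpha. Of 50 measured members, 9 passed with brain above liver and 1 with brain below, and the median difference was 0.12. In liver 14 were lower and 5 higher in DBA/2J, where 12.6% and 10.9% of all features were. Cyp4a10, an omega-hydroxylase and target of the receptor, ran from -1.39 to -0.66 (median -1.02) in liver and from -0.28 to 0.26 in brain, a difference of 1.03 ± 0.12 (SE; limma adjusted p = 3.98e-06), and its kidney mean was -0.90. Its spot was dim in brain (percentile 3.1) and bright in liver (92.7) and kidney (97.7). Fabp5, a fatty acid carrier, differed by 0.67 ± 0.13 (SE), and Pdk4, which restrains glucose oxidation, by 0.53 ± 0.12 (SE), both with overlapping arrays. Without loess 4 members passed with brain above.

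Cytochromes P450 of families 1 to 4 oxidise drugs, steroids and fatty acids. Of 38 measured members, 10 passed with brain above liver and 3 with brain below, and 12 of these 13 had a ratio past the threshold in liver alone. The share past the threshold was 34.2%, against 7.47% of all features, and the median difference over members that went both ways was 0.03. The median percentile of the members was 24.9 in brain and 93.7 in liver, and 36 of the 38 were brighter in liver. Beside Cyp3a13 and Cyp4a10, Cyp3a44 had a difference of 1.05 ± 0.17 (SE), which was -0.08 without loess and 0.10 with 1 loess curve per array. Without loess, 2 members passed with brain above and 4 with brain below, and the median turned to -0.05. These genes belong to families with near-identical members, which a spot may not tell apart.

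Conjugating and hydrolysing enzymes make drugs and toxins soluble. Of 44 measured members, 5 passed with brain above liver and 8 with brain below, with a median difference of 0.05. Next to Aox3, Tpmt, which methylates thiopurines, ran from 0.33 to 1.16 (median 0.63) in liver and from -0.40 to -0.03 in brain, a difference of -0.89 ± 0.14 (SE; limma adjusted p = 1.87e-04). Fmo2, a flavin monooxygenase, ran from 0.85 to 1.65 (median 1.06) in liver and from 0.16 to 0.37 in brain, a difference of -0.86 ± 0.13 (SE; limma adjusted p = 1.06e-04). Its 2 spots agreed in sign (-1.05 and -0.66), each past the threshold.

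Acute phase and other plasma proteins, which liver secretes, went both ways. Of 35 measured members, 6 passed with brain above liver and 6 with brain below, and the median difference was 0.03. By percentile all 35 were brighter in liver. Apcs and Hamp led the members below. Serpina3n, a protease inhibitor of the acute phase, led those above with 0.82 ± 0.18 (SE; limma adjusted p = 0.00587), and was at 0.32 and not past the threshold without loess. The Serpina3n spot was at percentile 3.8 in brain and 91.85 in liver. Without loess none passed with brain above and 4 passed with brain below, and the median turned to -0.31. The count with brain above was also lower with 1 loess curve per array (1) and with intensity left as the ratio alone gives it (2), and the cause was not tested.

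In complement and coagulation, 5 of 44 measured members passed with brain above liver and 2 with brain below, and the median difference was 0.09. Without loess the balance turned, to 2 above and 4 below with a median of -0.07, and with arrays scaled to a common spread it was 5 and 5. Hc, complement component 5, ran from -1.46 to -0.16 (median -1.31) in liver and from -0.50 to 0.04 (median -0.20) in brain, a difference of 0.88 ± 0.16 (SE; limma adjusted p = 6.91e-04). Liver array 2 alone was at -0.16, within the brain range, and without loess the difference was 0.48 and did not pass. Cfi, a complement inhibitor, differed because DBA/2J brain was higher, from 0.54 to 1.06 (median 1.04) against -0.25 to 0.32 in liver, a difference of 0.84 ± 0.14 (SE; limma adjusted p = 2.54e-04). C1qa, a complement subunit that microglia make in brain, differed by 0.58 ± 0.14 (SE). Among 17 measured markers of macrophages, microglia and Kupffer cells, C1qa was the only member past the threshold. The median of these markers ran from -0.07 to 0.06 over brain arrays and from -0.16 to -0.02 over liver arrays, and their part in the C1qa result was not tested.

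Major urinary proteins carry pheromones and are made in liver under sex-dependent control. Of 19 measured members of a list of these and other sex-dependent liver genes, 6 passed with brain above liver and 3 with brain below. Without loess the balance turned, to none above and 4 below, and with each array's own rebuilt intensity, a setting chosen after seeing the data, it was 3 above and none below. Mup3 (-0.97 ± 0.27, SE) and Mup2 (-0.81 ± 0.25, SE) had liver arrays that spread from 0.06 to 2.36 and from -0.01 to 1.78. The 2 spots of Mup3 were at -1.41 and at -0.54, the latter not past the threshold (limma adjusted p = 0.247). Mup3 was not past the threshold without brain array 2, liver array 1 or liver array 3, and Mup2 lost its call when any of 10 of the 12 arrays was left out. Their members are near-identical, and no single gene can be named with confidence from a spot.

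Glycolysis and gluconeogenesis, which run in opposite directions, had 6 of 40 measured members past the threshold with brain above liver and 1 below, with a median of 0.07. Pfkl, the liver form of phosphofructokinase, was at -0.52 or lower on every liver array (median -0.69) and ran from 0.02 to 0.68 (median 0.12) in brain, a difference of 0.94 ± 0.13 (SE; limma adjusted p = 2.79e-05). G6pc, which releases glucose from liver, ran from -1.34 to -0.48 in liver and from -0.47 to 0.50 in brain, a difference of 0.72 ± 0.14 (SE; limma adjusted p = 0.00185). Gys1, the glycogen synthase of muscle and other tissues, was below by -0.63 ± 0.14 (SE), and its 2 spots gave -0.67 and -0.59.

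Iron, ferritin and haem genes had 1 of 35 measured members above and 4 below, with a median of -0.01. Beside Hamp, Tfrc, the transferrin receptor, was below by -0.50 ± 0.12 (SE; limma adjusted p = 0.00751). Its 2 spots gave -0.89 and -0.12, and without loess the difference was -0.47 and did not pass. Ftl2-ps (0.69 ± 0.22, SE) was below 0 on every array of both tissues and lay at the threshold (limma adjusted p = 0.0492). It was not past it when any of 9 of the 12 arrays was left out. Metallothionein and zinc genes had 1 of 17 measured members above and 1 below, with a median of 0.12. These were Mt1 and the zinc transporter Slc30a6 (0.47 ± 0.12, SE), which did not pass without loess (0.38).

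Clock genes oscillate over the day, and their level depends on the time of sampling, which is not given in the sources used here. Of 17 measured members, 1 passed above and 2 below, with a median of -0.01. Dbp, an output factor with a strong daily rhythm, ran from 0.66 to 1.84 (median 0.84) in liver and from -0.18 to 0.46 (median 0.28) in brain, a difference of -0.77 ± 0.17 (SE; limma adjusted p = 0.00469). Liver array 1 held the value of 1.84. Clock differed by -0.46 ± 0.10 (SE), with no overlap, and with intensity left as the ratio alone gives it the difference was -0.40 and did not pass. Nfil3, a repressor at the sites that Dbp binds, differed by 0.36 ± 0.11 (SE; limma adjusted p = 0.0386) and was not past the threshold when any of 9 of the 12 arrays was left out. The part of the sampling time in these values was not tested.

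Neuropeptides are cut from precursors and often amidated before release. Of 35 measured members, 9 passed with brain above liver and 1 with brain below, and the median difference was 0.16. Over the alternative settings the count above ran from 4 to 10, and was 4 with intensity left as the ratio alone gives it. Besides Pam, Vip, the vasoactive intestinal peptide, ran from 0.37 to 1.69 (median 0.92) in brain and from -0.27 to 0.23 in liver, a difference of 1.09 ± 0.19 (SE; limma adjusted p = 6.47e-04), with no overlap. The others did not all rest on brain: of the 10 members past the threshold, 6 had a ratio different from 0 in liver alone. Gal, the peptide galanin, was one of these at 0.00 in brain and -0.59 in liver, from spots at percentile 83.5 in brain and 95.4 in liver. Npy, neuropeptide Y, had means of 0.28 in brain and -0.44 in liver and a difference of 0.71.

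MHC and antigen presentation genes present peptides to T cells, and the strains carry different haplotypes. Of 27 measured members, 5 passed with brain above liver and 1, B2m (-0.50), with brain below. Without loess the balance turned, to 1 above and 2 below. The median difference was 0.11, or 0.00 without loess. Next to H2-Q10, the class I genes H2-K1 (0.59 ± 0.12, SE) and H2-Q7 (0.53 ± 0.11, SE) had liver means of -0.65 and -0.73 and brain means of -0.06 and -0.20. Without loess they were at 0.44 and 0.43 and did not pass. Class I genes are close in sequence, and their spots may share signal.

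The cytosolic ribosomal proteins and the subunits of oxidative phosphorylation are abundant in every cell. Of 65 measured ribosomal proteins, 6 passed with brain above liver and none with brain below, 9.23% against 7.47% of all features. The median difference was 0.16, and 55 of the 65 differences were above 0. The list's median ran from -0.10 to 0.61 over brain arrays and from 0.07 to 0.34 over liver arrays, so the arrays of the tissues overlapped. Over the alternative settings the count above ran from 3 to 21. Rplp2 (0.66 ± 0.12, SE), Rpl14 (0.65 ± 0.12, SE) and Rpl24 (0.64 ± 0.13, SE) had the largest differences. Rplp2 was at 0.40 and Rpl14 at 0.35 with 1 loess curve per array, neither past the threshold.

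Of 70 measured subunits of oxidative phosphorylation, 6 passed with brain above liver and 3 with brain below, with a median of 0.10. Over the alternative settings the count above ran from 2 to 14. Ndufa12, an accessory subunit of complex I, ran from -0.93 to -0.05 (median -0.39) in brain and from 0.13 to 0.56 (median 0.33) in liver, a difference of -0.79 ± 0.12 (SE; limma adjusted p = 1.30e-04). Ndufa13, of the same complex, was at -0.62 ± 0.23 (SD, n = 6) in brain and 0.00 ± 0.13 (SD, n = 6) in liver, a difference of -0.62 ± 0.10 (SE). Neither passed without loess (-0.55 and -0.32). Cox7a2 (0.59 ± 0.12, SE), of cytochrome oxidase, was at 0.27 without loess and did not pass.

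**Figure D4:**
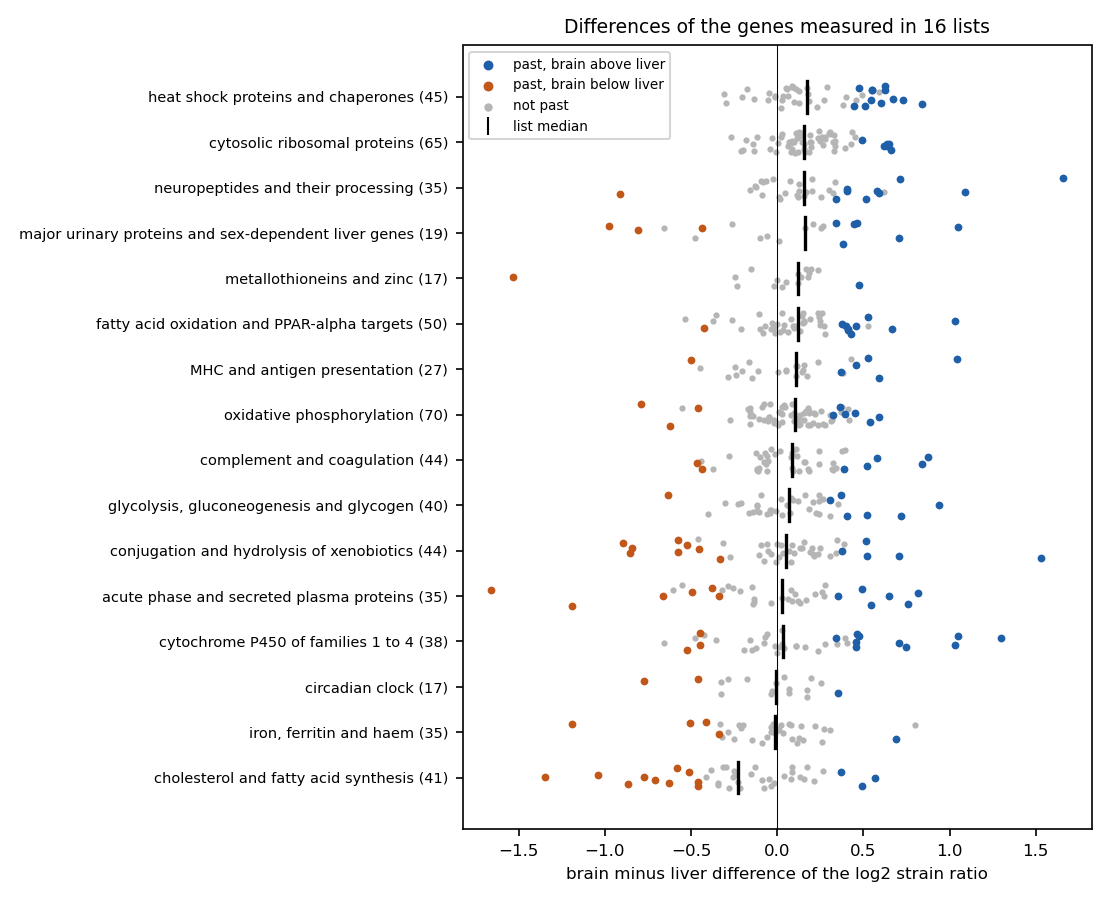
Brain minus liver difference of the log2 strain ratio (x axis) for the measured genes of 16 lists, with the number measured in parentheses, ordered by list median (black ticks). Blue points passed the threshold with brain above liver, orange points with brain below, grey points did not pass, and points are spread vertically for legibility. Chaperones (median 0.18) hold no orange point, cholesterol and fatty acid synthesis (median -0.23) holds 10, and plasma proteins (median 0.03) hold 6 of each colour.

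Genes at which the strains are known to carry different alleles were measured in both tissues. Glo1, the glyoxalase that is duplicated in DBA/2J, was above 0 on all 12 arrays, from 0.50 to 0.80 in brain and from 0.77 to 1.16 in liver. Its difference of -0.28 ± 0.12 (SE) did not pass (limma adjusted p = 0.196). Gabra2, a GABA receptor subunit with lower expression in C57BL/6J brain, ran from 0.36 to 0.69 (median 0.41) in brain and from -0.18 to 0.17 (median 0.04) in liver. Its difference was 0.45 ± 0.10 (SE; limma adjusted p = 0.00680), from 2 spots at 0.14 and 0.76, and was 0.35 and not past the threshold without loess.

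Nnt, a mitochondrial transhydrogenase that is partly deleted in C57BL/6J, ran from 0.11 to 0.88 (median 0.66) in liver and from -0.79 to 0.46 (median 0.17) in brain, a difference of -0.52 ± 0.21 (SE) that did not pass (limma adjusted p = 0.144). H2-Ea, a class II gene silent in C57BL/6J, was at 0.64 in liver and 0.19 in brain on a dim spot (percentiles 10.7 and 7.68), a difference of -0.45 ± 0.15 (SE; limma adjusted p = 0.0735) that was -0.58 and past the threshold without loess. Hc, which is defective in DBA/2J, is given with complement. Gpnmb (0.26), Klrd1 (-0.08), Tyrp1 (-0.22), Myo5a (0.03) and Alad (0.01) did not pass. Alad, listed as higher in DBA/2J, was at 0.09 in brain and 0.08 in liver. Of those listed as lower, Klrd1 was at -0.02 in brain and 0.06 in liver, and Myo5a at -0.05 and -0.08. None of these ratios was past the threshold, so these spots did not show the listed strain difference in either tissue. In liver alone, Gpnmb was past the threshold as lower (-0.23), and Tyrp1, listed as lower, as higher (0.27).

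The other lists had at most 5 members past the threshold in a direction. Proteasome subunits had 5 of 37 measured members past the threshold with brain above liver and none below, amino acid breakdown and urea cycle 5 above and 2 below of 60, and apolipoproteins 1 above and 2 below of 28. Neuron and synaptic vesicle genes had 3 above and 1 below of 52, myelin and oligodendrocyte genes 1 above and 3 below of 24, and astrocyte genes 1 above and 3 below of 26. GABA and glycine signalling had 3 above and 1 below of 26, potassium channels 2 above and 1 below of 28, glutamate receptors 1 below of 17 and immediate early genes 1 below of 29. Glutathione and redox enzymes had 1 above and 1 below of 36, BCL-2 family and apoptosis genes 1 above and 1 below of 29, matrix proteases and thrombospondins 2 above of 29, glandular kallikreins 1 above of 12, and tubulins and cilia 2 above of 37. By chromosome, the share of named genes past the threshold ran from 6.33% on chromosome 9 to 10.1% on chromosome 19.

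Markers of other cell types that a dissected tissue can hold were also measured. Of 14 measured skeletal muscle markers, 3 (21.4%) passed with brain below liver, against 3.21% of all features: Acta1 (-1.41, with a liver mean of 1.57), Ckm (-0.58) and Tnnt3 (-0.53). The median of the 14 ran from -0.09 to 0.13 over liver arrays and from -0.18 to -0.01 over brain arrays. Of 11 acinar markers 18.2% passed, and of 7 adipocyte markers 14.3%, which is Fabp4 (-0.52), against 7.47% of all features. Neutrophil (1 above of 7), lymphocyte (1 below of 13) and stellate cell or fibroblast markers (1 above and 1 below of 11) also held calls, and endothelial, red blood cell, cholangiocyte and choroid plexus markers held none of 10, 5, 6 and 7. Hepatocyte markers had 3 above and 1 below of 17, neuron markers none of 13, astrocyte markers 1 below of 9 and oligodendrocyte markers 2 below of 9. In RNA of whole tissue, fewer cells of a type and less RNA per cell cannot be told apart, and the part of such cells in the differences above was not tested.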

How the data were processed

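RNA of both strains was measured on 2-colour arrays, and the deposited table holds 1 log2 ratio per spot and array. The labels describe the authors' values as print-tip lowess normalised. In the table, 100.0% of 391770 values were log2 ratios of 2 whole numbers (tolerance 1e-12). Array medians ran from -1.65 (liver array 1) to 0.16 (kidney array 5). The correlation of the ratio with rebuilt intensity ran from -0.149 (liver array 2) to 0.695 (kidney array 1). The values were therefore treated as ratios that had not been normalised. Each spot's intensities were rebuilt from these fractions, with a common factor estimated per tissue. Ratios were then normalised by print-tip loess (48 blocks of 480 spots, span 0.3, 4 iterations) against that intensity. Of 23040 spots, 1275 listed at 0 on every array were left out.

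One limma fit (limma 3.58.1, R 4.3.3) over all 18 arrays gave brain minus liver, with Benjamini-Hochberg adjustment over 20218 features at 0.05. The SE of a difference is from that fit. It pools the spread of brain, liver and kidney arrays, is moderated across features, and is not the SE of the brain and liver arrays alone. On simulated data for this comparison (20218 features, 200 changed), 97.0% of 2-fold and 77.0% of 1.5-fold differences were recovered. The changed features were named genes with a single spot and a mean intensity above the median, so recovery was not measured for dimmer spots. In the same data, 52 of 20018 unchanged features (0.260%) were called, 23.0% of the calls. Of these 52, 21 had an intensity rebuilt wrongly by over 1 log2 unit in brain or liver, against 8.31% of all features. The precision of each value is limited by the number of arrays.

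Genes were named by rule: the 12 highest and 12 lowest differences among genes past the threshold, at least 1.5-fold and without overlap; the 4 each way with opposite signs; up to 3 members of each list described; and known strain alleles. Other list members and markers with values were chosen after their values were seen. The members and lists were chosen with earlier results of these data known. Array numbers were not used to pair the tissues. Deviations of same-numbered arrays correlated from -0.232 to 0.0608, which shows little shared deviation but cannot tell whether they were handled together.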

Additional observations from a re-analysis of the deposited data

Results flagged for a closer look

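The strain ratio differed between brain and liver by limma for 67 of 75 genes named by rule, and the brain minus liver log2 differences are given here in order of size. With brain above liver these were Fpr2 (2.20), Olfr76 (1.67), Pam (1.66), Thbs2 (1.57), 1700096J18Rik (1.54), Aox3 (1.53), Amy2 (1.44), Neurl3 (1.43), E130101E03Rik (1.38), 1700024B18Rik (1.31), Bcas3os2 (1.30), Cyp3a13 (1.30) and Vip (1.09). Smaller differences with brain above liver were those of Cyp3a44 (1.05), H2-Q10 (1.04), Cyp4a10 (1.03), Mug1 (1.01), Pfkl (0.94), 4933427E13Rik (0.91), Hc (0.88), Cfi (0.84), Dnajb9 (0.84), Serpina3n (0.82), Hspb1 (0.73), G6pc (0.72) and Ftl2-ps (0.69). The smallest with brain above liver were those of Fabp5 (0.67), Xbp1 (0.67), Rplp2 (0.66), Rpl14 (0.65), Rpl24 (0.64), Cox7a2 (0.59), H2-K1 (0.59), C1qa (0.58), H2-Q7 (0.53), Pdk4 (0.53), Slc30a6 (0.47), Gabra2 (0.45) and Nfil3 (0.36). With brain below liver these were Fgf2 (-2.64), Hmx2 (-2.22), Apcs (-1.66), Apoc1 (-1.65), Sh3bp1 (-1.64), Mt1 (-1.54), Msmo1 (-1.35), Gadl1 (-1.30), Specc1l (-1.29), Fgf15 (-1.27), 1600010M07Rik (-1.24) and Mfsd10 (-1.24). Smaller differences with brain below liver were those of Hamp (-1.19), Abcc8 (-1.08), Sc5d (-1.04), Htr6 (-0.99), Mup3 (-0.97), Nts (-0.91), Tpmt (-0.89), Fmo2 (-0.86), Gpam (-0.86), Mup2 (-0.81), Ndufa12 (-0.79) and Dbp (-0.77). The smallest with brain below liver were those of Gys1 (-0.63), Ndufa13 (-0.62), Tfrc (-0.50) and Clock (-0.46). 

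Among the named genes, 1 array stood apart from the other 5 of its tissue in 10 of 150 groups (6.67%), where chance flags about 1 in 20. In brain these were array 2 for Aox3 (0.59), array 1 for Apoc1 (-4.17) and Nnt (-0.79), array 3 for Fmo2 (0.16) and array 5 for Pfkl (0.68). In liver they were array 5 for 4933427E13Rik (-0.85) and Apoc1 (-0.57), array 1 for Dbp (1.84), and array 2 for G6pc (-1.34) and Hc (-0.16), all normalised log2 ratios. Brain array 1 and liver array 2, which correlated least with the other arrays of their tissue, held 4 of the 10.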

How the results depend on the processing

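Of 1511 calls, 681 (45.1%) were kept without loess, 800 (52.9%) with 1 loess curve per array and 723 (47.8%) with intensity left as the ratio alone gives it. The counts were 830 (472 above, 358 below), 881 (471 above, 410 below) and 774 (430 above, 344 below), and the last setting gave 3062 features with a liver ratio different from 0. With each array's own rebuilt intensity, an alternative chosen after seeing the data, 1078 were kept. With a fit of brain and liver arrays only, 1264 features passed and 1202 of the 1511 were kept. Ftl2-ps, Mup3, Nfil3 and Sc5d did not pass in that fit. With 1 array left out, the calls ran from 1170 to 1567 (above 663 to 903, below 500 to 664), those of at least 1.5-fold from 487 to 580, brain ratios different from 0 from 2787 to 4210 and liver ratios from 3586 to 5106. With the replicate block the calls were 1369, of which 1303 are among the 1511, and 515 of at least 1.5-fold. Same-numbered arrays shared little deviation. Without loess, 1700096J18Rik (-0.08) and Cyp3a44 (-0.08) changed sign. Of 67 named genes past the threshold, 62 stayed past it with any 1 array left out. Of 11 other alternatives, those that left out the dimmest or the brightest features did not test the genes they removed, such as Olfr76 and Abcc8. Wherever they were tested under the 11, 43 of the 67 genes stayed past the threshold. The causes of these changes were not tested.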
